A study of Mus musculus with 8 samples.

Results

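The proteasome genes of IMCD3 cells, an established mouse line of kidney inner medullary collecting duct epithelium, were examined with and without serum. They were taken by name, as all array probes named Psma, Psmb, Psmc, Psmd, Psme, Psmf or Psmg with a number, except the immunoproteasome subunit genes Psmb8, Psmb9 and Psmb10. This gave 65 of 41174 probes, which stand for 41 genes, and 60 of these probes, for 40 genes, were bright enough to test, among 16068 genes tested in all. No probe carries a Psmg name, and one gene that the names take in, Psmc3ip, encodes a meiotic recombination protein and no proteasome subunit.

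Starved cells were grown for 48 h in medium without fetal calf serum, which makes these cells form cilia. Unstarved cells had 10% serum, were spread thinly onto fresh dishes a day earlier and had not filled them, so serum and cell density cannot be told apart. All cells were of this 1 line with no genetic change, and by its title the series looks for genes that act downstream of FOXJ1, which controls motile cilia. The 8 samples, 4 in each group, were hybridised as pairs of 1 starved and 1 unstarved sample on 4 Agilent arrays. Arrays 1 and 3 belong to replicate 1 and carry starved RNA in the dye Cy5, and arrays 2 and 4 belong to replicate 2 and carry it in Cy3. Replicate and dye orientation therefore cannot be told apart.

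The proteasome cuts proteins tagged with ubiquitin into peptides. Its 20S core is a barrel of alpha rings around beta rings, and the beta subunits PSMB5, PSMB6 and PSMB7 hold the catalytic sites. The 19S regulatory particle caps the barrel: the ATPases of its base unfold substrates and feed them into the core, and its lid removes the ubiquitin. In the immunoproteasome, which is induced by interferon, PSMB8, PSMB9 and PSMB10 take the places of PSMB5, PSMB6 and PSMB7. The transcription factors NRF1 and NRF2, encoded by Nfe2l1 and Nfe2l2, are known to raise the subunit genes, through antioxidant response elements, when the proteasome is inhibited or the cell is under oxidative stress.

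The catalytic subunits and their immunoproteasome counterparts are paralogs, so the probes of Psmb5, Psmb8, Psmb6 and Psmb9 are shown first. Each is a 60-base probe of the array, printed 5′ to 3′ from the scanner files, with capitals for bases identical to the probe aligned with it:
Psmb5: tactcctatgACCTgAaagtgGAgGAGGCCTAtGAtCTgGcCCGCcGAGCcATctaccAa
Psmb8: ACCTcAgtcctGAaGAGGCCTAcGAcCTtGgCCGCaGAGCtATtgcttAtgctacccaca
Psmb6: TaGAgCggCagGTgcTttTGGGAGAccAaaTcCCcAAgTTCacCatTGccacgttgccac
Psmb9: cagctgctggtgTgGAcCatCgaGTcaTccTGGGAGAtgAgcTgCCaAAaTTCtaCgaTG
The Psmb5 and Psmb8 probes read the same stretch of the 2 genes and match at 31 of 50 aligned bases (62.0%), and the Psmb6 and Psmb9 probes match at 27 of 48 (56.2%). The array design places them, in build mm8, at chr14:53568529-53568588 on the minus strand (Psmb5), chr17:33811038-33811097 on the plus strand (Psmb8), chr11:70343707-70343766 on the plus strand (Psmb6) and chr17:33792517-33792576 on the minus strand (Psmb9). Hybridisation of one paralog to the other's probe was not tested.

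Values below are log2 ratios (starved over unstarved) after loess normalization within each array, given as the mean of 2 replicates ± the moderated standard error of limma (n = 2). A gene was called where limma's Benjamini-Hochberg adjusted p over all genes tested was below 0.05. Nothing says that the 2 replicates were separate experiments beyond the series text, which names them biological replicates.

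Transcript levels of the constitutive proteasome differed little between starved and unstarved cells after loess normalization. Of the 40 genes tested, 1 rose (Psme1, a subunit of the PA28 activator) and 1 fell (Psme3, the nuclear PA28 subunit), while 38 were not called. The members called are 2.5% in each direction, beside 18.1% of all genes tested called higher and 13.4% called lower, or 31.4% in both directions together. All 40 ratios lay between -0.34 and 0.38. These counts rest on the pairing of arrays that the labels give. Were the dyes swapped within each replicate, as the series text says, 11 members would be called higher and 24 lower (arrays 1 and 2 against 3 and 4) or 11 and 23 (arrays 1 and 4 against 2 and 3), with 89% and 87.8% of all genes called. If the labels are right instead, the error of these 2 fits holds only the spread between repeat arrays. Their prior standard deviations were 0.015 and 0.02, against 0.18 with the labels' pairing. With the labels' pairing, 4 members had an unadjusted p under 0.05 (10%), against 40.9% of all genes.

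The 40 genes also lay close to 0 in size. The median size of the ratio without its sign was 0.13 for members and 0.22 for all genes, and 28 members (70%) were within 0.2 of 0, against 47.1% of all genes. The 95% interval of the ratio stayed inside a 1.5-fold change in either direction for 38 members (95%), and for 10400 of all 16068 genes (64.7%). The widest limit of any member was 1.56-fold. A missed threshold does not show that a gene was unchanged. The intervals draw their width mostly from the spread of all genes, and for Psmb7 and Psmd13, both among the 38, the ratio of replicate 1 (-0.65 for each) lay outside the interval and beyond 1.5-fold.

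The small ratios leaned downwards. Of the 40, 26 lay below 0 and 14 above, with a median of -0.10 (0.005 for all genes), at -0.12 in replicate 1 and -0.05 in replicate 2. On all 4 arrays 17 members lay below 0 and 7 above, against 33.3% and 36.1% of all genes. This depends on the scaling. With each array centred on its median in place of loess, 39 of 40 lay below 0, the members' median was -0.39 with -0.08 for all genes, and 0 members had an interval inside 1.5-fold; the prior standard deviation rose from 0.18 to 0.61 there, and 249 of all genes were called. The difference between members and all genes under median centring came from replicate 2: it was -0.57 and -0.54 on arrays 2 and 4, and -0.006 and -0.04 on arrays 1 and 3.

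**Figure D1:**
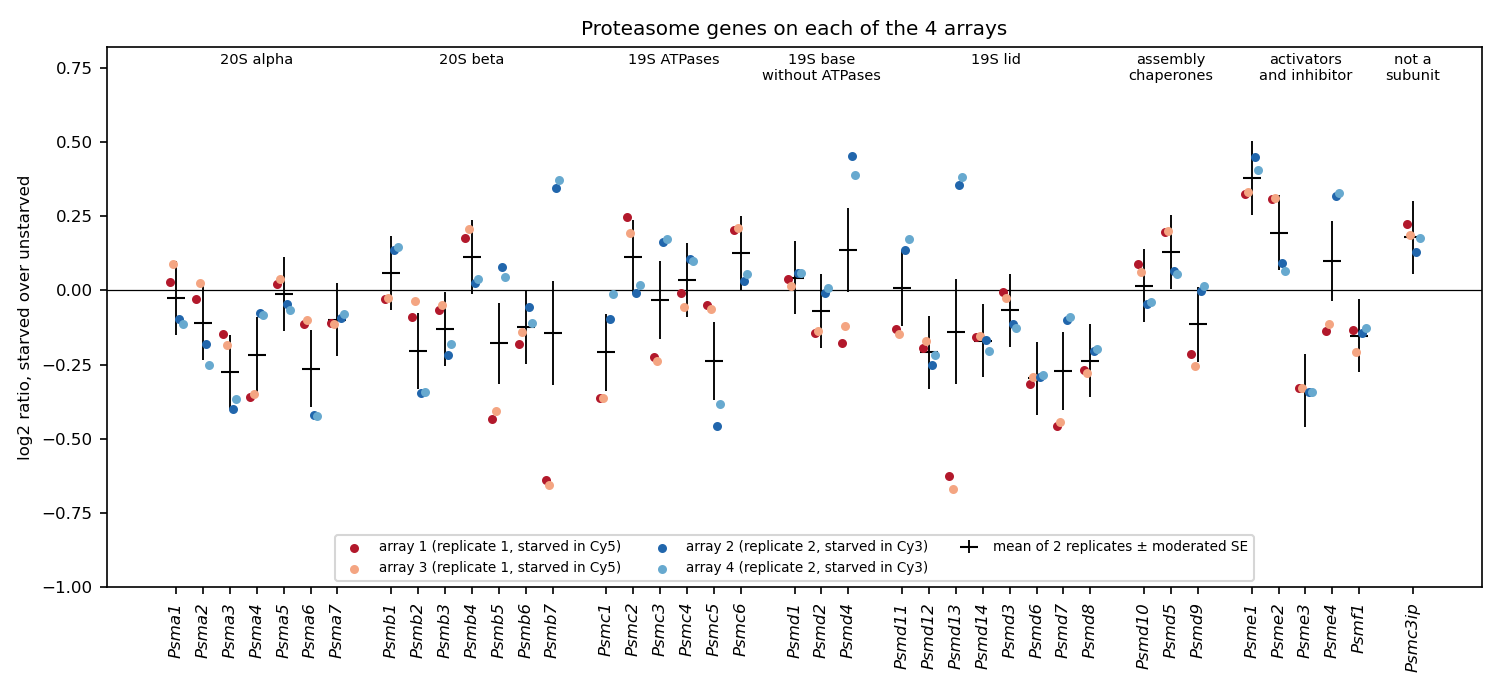
Log2 ratio of starved over unstarved cells for the 40 tested genes, grouped by role, with 1 point per array, red or orange for replicate 1 and dark or light blue for replicate 2, and a black bar for the mean ± moderated standard error. Most genes lie within 0.2 of 0, Psme1 at 0.38 and Psme3 at -0.34 are the extremes, and the points of the 2 replicates of Psmb7 and Psmd13 lie far apart.

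In the alpha rings, which gate the entrance of the core, all 7 tested genes had a mean ratio below 0 and none (0) was called. The values were -0.27 ± 0.13 for Psma3, -0.26 ± 0.13 for Psma6, -0.22 ± 0.13 for Psma4, -0.11 for Psma2, -0.10 for Psma7, -0.02 for Psma1 and -0.01 for Psma5, with a median of -0.11. Psma3, the lowest, had limma's adjusted p = 0.112 and an unadjusted p of 0.0444, and its arrays gave -0.15, -0.40, -0.19 and -0.37 in order. Psma8, a testis-type alpha subunit, was not well above background on any array in either group.

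The beta rings had 7 tested genes with a median of -0.13, and again 0 were called. Of the catalytic subunits, Psmb6, which encodes the caspase-like site, had log2 levels of 16.71, 16.82, 16.66 and 16.74 in the starved samples of arrays 1 to 4 and of 16.90, 16.87, 16.80 and 16.85 in the unstarved ones. Each starved sample was a little lower than its partner, though the groups overlapped, and the ratio was -0.12 ± 0.12 (limma adjusted p = 0.493). Psmb5, the chymotrypsin-like site, was at 15.30, 15.55, 15.35 and 15.44 in starved and 15.73, 15.48, 15.75 and 15.40 in unstarved samples. It was lower in both starved samples of replicate 1 and slightly higher in those of replicate 2, and its ratio was -0.18 ± 0.14 (limma adjusted p = 0.353).

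Psmb7, the trypsin-like site, gave opposite answers in the 2 replicates. Its levels were 14.61 and 14.57 in starved against 15.25 and 15.23 in unstarved samples of replicate 1, and 15.06 and 15.21 against 14.72 and 14.84 in replicate 2. The replicate ratios were -0.65 and 0.36, and their mean of -0.14 ± 0.18 (limma adjusted p = 0.576) has the widest interval but one among the members. The other beta genes were Psmb2 (-0.20), Psmb3 (-0.13), Psmb1 (0.06) and Psmb4 (0.11).

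The 6 ATPases of the 19S base were centred on 0, with a median of 0.002, 3 on either side and 0 called. They were Psmc5 (-0.24 ± 0.13), Psmc1 (-0.21), Psmc3 (-0.03), Psmc4 (0.04), Psmc2 (0.11) and Psmc6 (0.13). Of the other base subunits, Psmd1 and Psmd2, the large scaffolds, had 0.04 and -0.07. The ubiquitin receptor gene Psmd4 had 0.14 ± 0.14, from -0.15 in replicate 1 and 0.42 in replicate 2.

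The lid had the lowest median of the role groups, -0.19, with 7 of 8 genes below 0 and 0 called. Its members were Psmd6 (-0.30 ± 0.12, limma adjusted p = 0.0789), Psmd7 (-0.27), Psmd8 (-0.24), Psmd12 (-0.21), Psmd14, the deubiquitinating enzyme (-0.17), Psmd13 (-0.14), Psmd3 (-0.07) and Psmd11 (0.008). For Psmd6 the 4 arrays gave ratios close together, -0.32, -0.29, -0.29 and -0.29, and its levels were 14.83 to 14.98 in starved and 15.12 to 15.30 in unstarved samples, without overlap. It was called with replicate as a random block (when lower calls among members went from 1 to 2), and Psmd6 is singled out here after its values were seen. The chaperones that assemble the base, Psmd5 (0.13), Psmd9 (-0.11) and Psmd10, also known as gankyrin (0.02), were not called.

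Assembly chaperones of the core carry other names on this array and so fall outside the rule. Psmg1, listed as Dscr2, fell (-0.37 ± 0.12, limma adjusted p = 0.0332), Psmg3 had -0.32 (0.0701) and Psmg2 had 0.11 (0.549); these were picked after the values were seen.

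The activators that dock onto the core in place of the 19S particle held both called genes. PSME1 and PSME2 form the interferon-inducible PA28 ring, PSME3 forms a ring of its own in the nucleus, and PSME4 is PA200. Psme1 was at 16.06, 16.19, 16.08 and 15.99 in the starved samples of arrays 1 to 4 and at 15.74, 15.74, 15.75 and 15.58 in the unstarved ones. The groups did not overlap, and Psme1 was 1.30-fold higher in starved cells (0.38 ± 0.12, limma adjusted p = 0.0275, higher on 4 of 4 arrays). Psme3 was at 13.11, 12.93, 13.02 and 13.01 in starved and 13.44, 13.27, 13.35 and 13.35 in unstarved samples. Again the groups did not overlap, and Psme3 was 1.26-fold lower (-0.34 ± 0.12, limma adjusted p = 0.0473, lower on 4 of 4 arrays).

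Both calls lie near the threshold. With median centring Psme1 had 0.06 and Psme3 -0.47, both with limma's adjusted p = 1.00, and with Agilent's own processed signals they had 0.38 (0.0539) and -0.35 (0.071). Psme3 also lost its call without array 4 (0.0508). Of all genes, 1.55% were called with median centring and 30.6% with the processed signals.

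Psme2, the partner of Psme1 in the ring, had 0.19 ± 0.13 (limma adjusted p = 0.27), from 0.31 in replicate 1 and 0.08 in replicate 2. Its starved samples were at 16.04 to 16.33 and its unstarved ones at 15.73 to 16.03, without overlap. Psme4 (0.10 ± 0.14) was below 0 in replicate 1 (-0.13) and above it in replicate 2 (0.32). Psmf1, which encodes the inhibitor PI31, had -0.15 ± 0.12. Over all members, the starved samples lay wholly above the unstarved ones for 4 genes and wholly below for 13 (Psmb2 by 0.00162 on the log2 scale, Psme2 above by 0.00646), beside 28.3% and 23.5% of all genes. Psmc3ip, the recombination protein, had 0.18 ± 0.12 (limma adjusted p = 0.299).

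**Figure D2:**
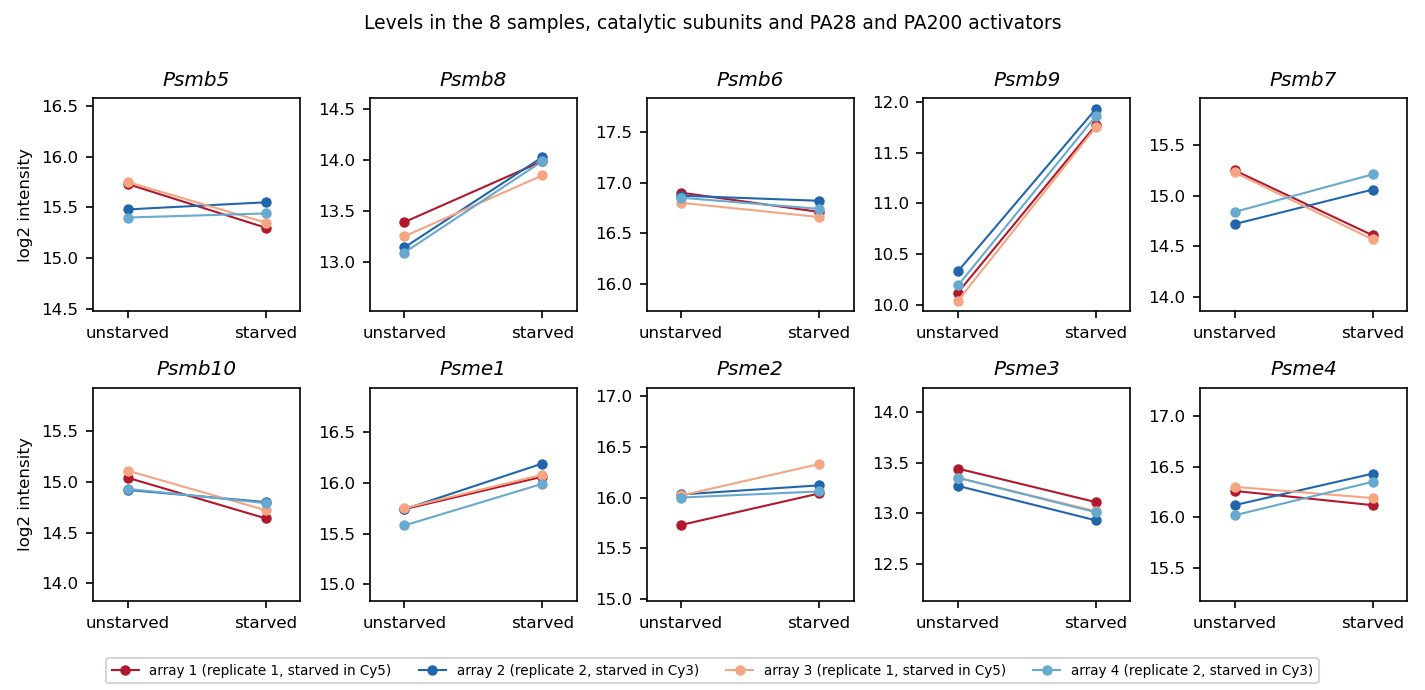
Log2 intensity of the catalytic subunits, their immunoproteasome counterparts and the activators in the 8 samples, with a line joining the 2 samples of an array, and panels of equal height on the log2 scale. Psmb9 and Psmb8 rise on every array, Psme1 rises and Psme3 falls on all 4, and the lines of Psmb7 run down in replicate 1 and up in replicate 2.

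Of the 3 immunoproteasome subunit genes, which the rule leaves out, 2 rose in starved cells and 1 was not called. Of all genes tested, 18.1% were called higher and 13.4% lower. Psmb9 was 3.15-fold higher (1.66 ± 0.12, limma adjusted p = 3.63e-08) at 11.77, 11.93, 11.75 and 11.86 against 10.12, 10.33, 10.04 and 10.19. Psmb8 rose by 0.74 ± 0.13 (adjusted p in limma 3.11e-04), and Psmb10 had -0.26 ± 0.13 (0.129). With median centring Psmb9 kept its call (1.61, limma adjusted p = 0.0154) and Psmb8 lost it (0.59, 1.00), where 1.55% of all genes were called.

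Set pair by pair on the arrays, the ratio of Psmb9 exceeded that of Psmb6 by 1.83, 1.66, 1.85 and 1.78 (mean 1.78). The ratio of Psmb8 exceeded that of Psmb5 by 1.03, 0.81, 1.00 and 0.85 (mean 0.92). Both excesses had 1 sign on all 4 arrays. For Psmb10 less Psmb7 the arrays gave 0.23, -0.46, 0.27 and -0.52, so no direction was shared (mean -0.12). These differences between genes were not tested.

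Markers of other cell types also differed between the groups. Of 9 leukocyte markers 7 were tested. Of these, 3 rose, Aif1 (1.49), Csf1r (1.44) and Cd14 (0.88), and 1 fell, Ptprc, the pan-leukocyte CD45 gene (-0.50). Over all genes tested 18.1% rose and 13.4% fell. Ptprc was well above background on 2 arrays in starved and 4 in unstarved samples, so it was tested only through the group where it was high. The summed linear intensity of the 7 was 16700 to 19000 in starved and 8580 to 8890 in unstarved samples. Fibroblast markers (3 of 9 tested) summed to 569 to 639 in starved and 959 to 1080 in unstarved samples, and endothelial markers (2 of 6 tested) to 1180 to 1410 and 2310 to 2520. Postn, among the fibroblast 3, was well above background on 0 arrays in starved and 4 in unstarved samples, so it too was tested only through the higher group. All 15 collecting duct markers listed were bright enough to test, and they summed to 501000 to 592000 in starved and 611000 to 674000 in unstarved samples, without overlap. Linear sums are set mostly by their brightest genes. In unstarved cells these were Krt8 and Krt18 for the collecting duct (mean log2 levels 17.81 and 17.53). For leukocytes they were Cd14 and Csf1r (12.14 and 11.53), and for endothelium Flt1 (11.10). Krt18 was not called, with 0.17 in replicate 1 and -0.59 in replicate 2. Of the 15, 5 rose, Scnn1g most (2.30), and 2 fell, the keratin genes Krt8 (-0.64) and Krt19 (-0.90), beside 18.1% and 13.4% of all genes. Avpr2, among the 5, was well above background on 4 arrays in starved and 1 in unstarved samples, so it was tested only through the higher group. All samples were of 1 cell line. Whether other cells were present, or had a part in the Psmb8, Psmb9 and Psme1 values, was not tested.

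Several genes that control the proteasome rose in starved cells. Of 12 genes of NRF1 and NRF2 control, 6 rose and 0 fell, with a median of 0.33, beside 18.1% and 13.4% of all genes and a median of 0.005. Both factors rose, Nfe2l2 (0.67 ± 0.12, limma adjusted p = 5.8e-04) and Nfe2l1 (0.51 ± 0.12, adjusted p in limma 0.00473), and so did Bach1, a repressor at the same elements (0.68), and Mafg, their partner (0.52, from 0.29 in replicate 1 and 0.75 in replicate 2). Ngly1 (0.40, limma adjusted p = 0.0467) and Ddi2 (0.34), whose enzymes process NRF1, rose as well, Ngly1 from 0.70 in replicate 1 and 0.09 in replicate 2. Of 8 NRF2 targets outside the proteasome 5 rose and 0 fell, with a median of 0.52, led by the cystine transporter gene Slc7a11 (1.59) and Osgin1 (1.11). Of the 12 control genes, 4 rose with Agilent's processed signals, the deposited value table or the mean of all probes. With the mean of all probes Nfe2l2 (0.49, limma adjusted p = 0.0117), Slc7a11 (1.13) and Osgin1 (0.90) had smaller ratios and kept their calls, while Nfe2l1 stayed at 0.51. With median centring the counts of these lists were 0 of 12 and 1 of 8, beside 1.55% of all genes called in that setting. The medians there were 0.20 and 0.40 (-0.08 for all genes), and Nfe2l1 had 0.23.

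Of 11 tested subunits and partners that the name rule misses, 1 rose and 2 fell, beside 18.1% and 13.4% of all genes. The ubiquitin receptor Adrm1 (0.005), the lid peptide Sem1 (-0.06) and the core assembly factor Pomp (-0.02) were not called. The proteasome-bound deubiquitinating enzymes Usp14 (-0.40 ± 0.12, limma adjusted p = 0.0191) and Uchl5 (-0.40 ± 0.13, adjusted p in limma 0.0263) fell, and Zfand5, a proteasome activator, rose (0.59). Uchl5 missed the threshold with Agilent's processed signals (-0.40, 0.0532).

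The next lists held no larger share of calls than the 31.4% of all genes. Of 5 shuttle factors, which carry tagged proteins to the proteasome, Ubqln1 fell (-0.36) and 4 were not called. Of 11 genes of the unfoldase VCP and its cofactors, Ubxn6 (0.63) and Ubxn1 (0.45) rose and 0 fell, and Vcp itself had 0.15 ± 0.12. The COP9 signalosome, a complex related to the lid, is a near comparison: 1 of 9 fell (Cops7b, -0.45), 8 were not called, and its median was -0.06. With median centring 0 of the calls of Usp14 (-0.52), Uchl5 (-0.73), Zfand5 (0.36), Ubqln1 (-0.62), Ubxn6 (0.38), Ubxn1 (0.06) and Cops7b (-0.53) were kept. In that setting 1.55% of all genes were called. The ratios of the fallen genes were larger in size there, and those of the risen genes smaller.

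**Figure D3:**
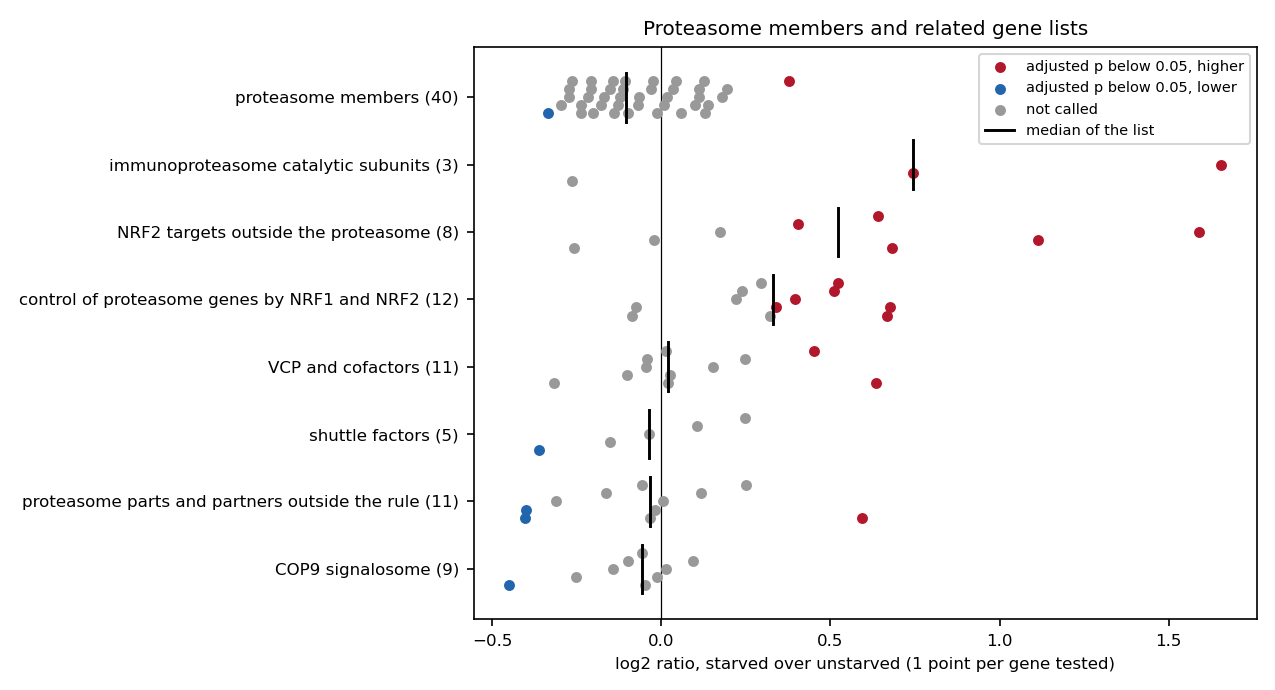
Log2 ratio of starved over unstarved cells for each tested gene of the proteasome members and of 7 related lists, coloured by limma's call, with a bar at each list's median and the number of genes in brackets. Members lie between -0.34 and 0.38 around a median of -0.10, while the medians of the NRF1 and NRF2 control genes and of the NRF2 targets are 0.33 and 0.52.

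Promoters of the members were searched for the letters of 4 elements, on both strands, in 250 bases before to 50 after the annotated start (RefSeq, GRCm38.p6). Of the 41 genes, 34 matched a promoter. The antioxidant response element core TGACNNNGC was found in 6 (17.6%), against 14.0% of all 27025 genes with a promoter. The 2 catalytic subunit genes among them are shown with the core in capitals, each on its own strand:
Psmb5: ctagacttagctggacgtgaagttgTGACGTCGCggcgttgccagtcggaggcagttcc
Psmb6: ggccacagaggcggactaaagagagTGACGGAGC
The first lies at chr14:54618009-54618067 on the minus strand, its core 47 bases before the start, and the second at chr11:70525323-70525356 on the plus strand, its core 9 bases before the start. The others with the core were Psmc6, Psmd9, Psmd12 and Psme4. The 6 genes had ratios of -0.21 to 0.13 with a median of -0.12, and 0 were called. The 28 genes without it had a median of -0.08, and 2 were called. Of all genes tested 31.4% were called, and of all members 2.5% in each direction. The genes with and without the core were not compared by a test.

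An interferon element, the repeat of GAAA after any 2 bases, was found in Psmb3, Psmd4, Psmd9 and Psme1 (4 of 34, 11.8%, against 4.0% of all genes) and in 0 of the 3 immunoproteasome genes. The gamma-activated site TTCNNNGAA was in 1 member, Psmd2 (2.9%, against 9.6%), and in Psmb8. CCAAT was in 13 members (38.2%, against 41.1%). A match of letters is no measured binding site, and a window without them says nothing of the factor.

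The 2 replicate ratios had opposite signs for 14 of 40 members (35%), against 25.1% of all genes. Member ratios were also smaller, with a median size of 0.13 against 0.22, and a small ratio changes sign more easily. Across the 40 members the replicates correlated at r = 0.029, and across all genes at 0.831, where many genes carry large differences. Within a replicate the 2 arrays correlated at 0.991 and 0.990 across members. The median distance between the replicate ratios was 0.16 for members and 0.17 for all genes. A distance over 0.5 was found in 3 members (7.5%), Psmd13 (1.02), Psmb7 (1.00) and Psmd4 (0.57), and in 7.46% of all genes.

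**Figure D4:**
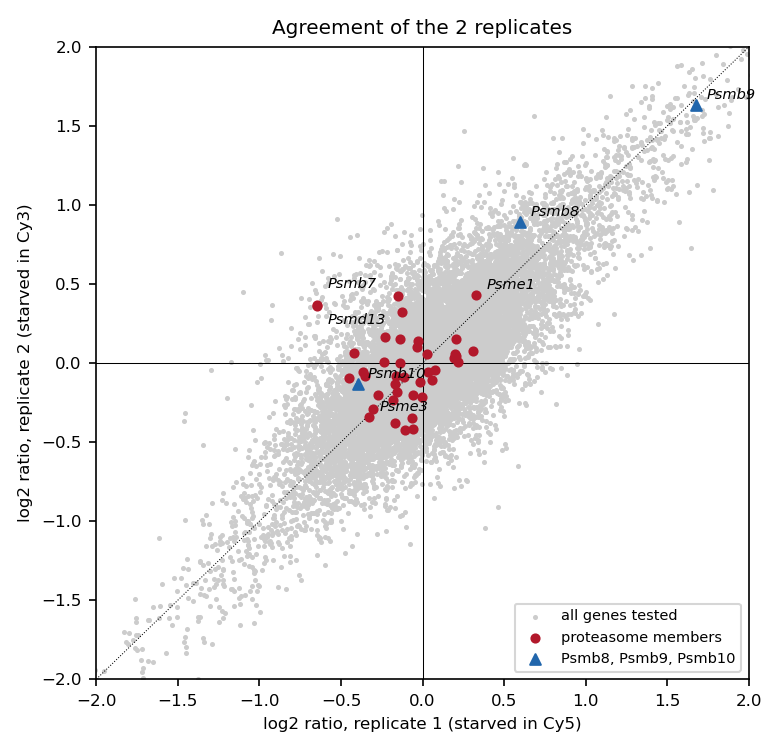
Log2 ratio in replicate 1 (starved in Cy5) against replicate 2 (starved in Cy3) for all tested genes in grey, the members in red and Psmb8, Psmb9 and Psmb10 as blue triangles, over the central part of the range. The members form a round cloud near 0 (r = 0.029 over 40 genes), with Psmb7 and Psmd13 far to the upper left.

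Probes of the same gene differed in their replicate ratios. In 16 member genes with 36 tested probes in all, the means over both replicates differed between probes by a median of 0.08 (at most 0.37, in Psmc6). The difference between replicates divided by 2, which under independent error varies as much as the mean does, differed between probes by a median of 0.13 (at most 0.63, in Psmf1), and by more than the mean in 11 of the 16 genes. This was not tested. Psmd2 is an example and was chosen, with the genes named in this paragraph and the next, after its values were seen. One probe had -0.14 in replicate 1 and 0.00 in replicate 2, the other -0.61 and 0.37, while their means were -0.07 and -0.12.

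These are the probes in question, with the 2 genes whose replicates lay farthest apart, printed 5′ to 3′ with runs of 3 or more G or C in capitals:
Psmd2, first probe: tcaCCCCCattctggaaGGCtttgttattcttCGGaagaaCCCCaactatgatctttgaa
Psmd2, second probe: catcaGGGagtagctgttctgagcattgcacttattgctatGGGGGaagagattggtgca
Psmb7: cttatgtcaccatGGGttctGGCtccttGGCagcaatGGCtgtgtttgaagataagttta
Psmd13: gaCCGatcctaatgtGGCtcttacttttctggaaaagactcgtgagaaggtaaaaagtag
In build mm8 the Psmd2 probes lie at chr16:20576730-20576789 and, with ends 300 bases apart, chr16:20573640-20573939, both on the plus strand. The Psmb7 probe reaches over chr2:38435455-38455874 on the minus strand and the Psmd13 probe over chr7:140737882-140738349 on the plus strand, spans longer than the probes, so that each joins separate pieces of its gene. Across the 60 tested member probes, replicate 1 less replicate 2 correlated with the share of G and C at r = -0.39; probes of 1 gene share a target, and the value is a description.

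In Psmc5 one probe gave -0.06 and -0.42 in the 2 replicates and the other -0.64 and 0.004, so even the order of the replicates turned. In Psmd4 both probes agreed, with -0.15 and 0.42 for one and -0.21 and 0.48 for the other. Psmc4, Psmc6 and Psme4 had probes with means on both sides of 0. Tested probe by probe, 1 member probe was called higher (Psme1) and 3 lower, of Psmd12 (-0.41 and -0.37, limma adjusted p = 0.0214 and 0.0447) and Psmf1 (-0.40, 0.0328), while the brighter probes that stand for these genes had -0.21 and -0.15. Psme3 missed the threshold in that test (0.0544).

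**Figure D5:**
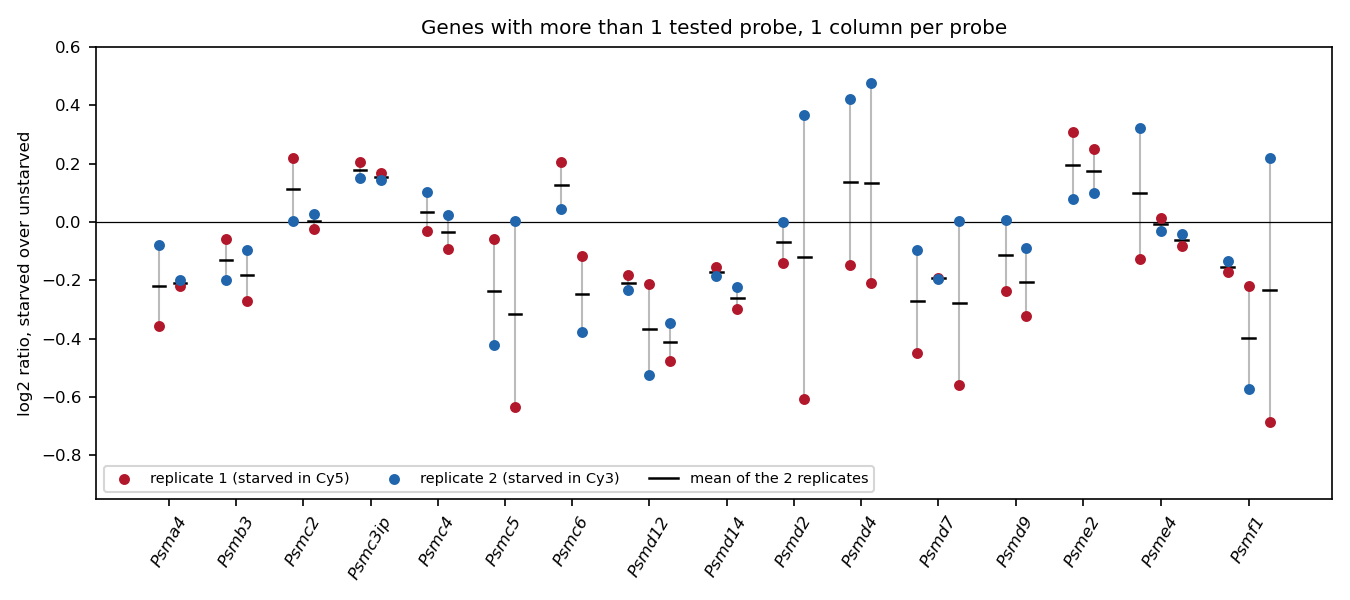
Log2 ratio of starved over unstarved cells for each tested probe of the 16 genes with more than 1, with replicate 1 in red, replicate 2 in blue and a black bar for their mean; the probe that stands for the gene is the left one of each group. The black bars of a gene lie close together (median range 0.08), and the distances between red and blue differ between probes, as in Psmd2 and Psmf1.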

How the data were processed

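Per the file headers, the deposited intensity values of each spot (mean signal, local background, processed signal) were extracted with Agilent Feature Extraction 9.5.3.1. The mean signal had its background removed by normexp (offset 50) and was normalized by loess per array with limma 3.58.1 (R 4.3.3) with control and flagged spots at weight 0, averaged per probe and turned to starved over unstarved. The 2 arrays of a replicate, as the labels number them, were averaged, and the 2 replicate log2 ratios were fitted with lmFit and eBayes. With 1 residual degree of freedom the error rests largely on the spread of all genes (15.1 prior degrees of freedom). The series text speaks of a dye swap within each pair, which the labels do not show; the other pairings were run as alternatives. All 4 arrays share 1 slide and 1 scan.

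A probe was tested if all 4 arrays of a group had it well above background, and a gene stands by its brightest member probe. Names were updated through a RefSeq gene table; 55 member probes matched by accession. Genes named are those of a written rule: every member, the catalytic subunits, called genes and fixed related genes. Members, lists and the rule were chosen with earlier results of these data known. Code was tested on simulated data. Single-channel levels are after loess and Aquantile. The number of arrays limits the precision. One of the related lists is not reported here.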

Additional observations from a re-analysis of the deposited data

Results flagged for a closer look

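In 80 groups of 4 samples (40 members, starved and unstarved), 6 held a sample set apart from the other three by more than the 95% critical value of Dixon's test. Chance flags about 1 in 20 groups of independent samples; here each group is 2 replicates with 2 arrays each, so that rate does not apply. The unstarved sample of array 1 was high in Psma4 (14.72, others 14.54 to 14.56) and low in Psme2 (15.73, others 16.00 to 16.03). The unstarved sample of array 2 was high in Psma7 (17.00, others 16.98) and low in Psmc4 (15.53, others 15.56), both by hundredths. On array 4 the starved sample was high in Psmc1 (15.71, others 15.40 to 15.45) and the unstarved one low in Psme1 (15.58, others 15.74 to 15.75). In Psme1 the starved sample of array 4 was also the lowest of its group (15.99, others 16.06 to 16.19), and without array 4 Psme1 kept its call. In Psme2 the starved sample of array 1 was the lowest too, but did not stand apart (16.04, others 16.06 to 16.33).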

How the results depend on the processing

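Of 40 members, 1 was called higher and 1 lower. The counts became 0 and 0 with median centring, Agilent's processed signals and the deposited value table, which called 1.55%, 30.6% and 31.1% of all genes. Lower calls were 0 with a filter in both groups and without array 4. They were 2 with the mean of all probes, replicate as a random block or no replicate block (levels fitted unpaired). With each probe on its own, 3 of 60 probes were called lower, of the genes Psmd12 and Psmf1 and not of Psme3. With arrays 1 and 2 against 3 and 4 as replicates 11 rose and 24 fell, with arrays 1 and 4 against 2 and 3, 11 and 23, and with a dye term 12 and 24. These 3 fits called 89%, 87.8% and 88.4% of all genes and 87.5%, 85% and 90% of members. The pairing of the arrays thus sets the count, and the cause was not tested. If the labels are right, the error of these 3 fits holds only the spread between repeat arrays. Their prior standard deviations were 0.015, 0.02 and 0.025, against 0.18 in the main fit. A normexp offset of 10, no filter on dim probes and leaving out arrays 1, 2 or 3 kept 1 and 1. The members' median was -0.39 with median centring, -0.06 with processed signals, and -0.05 and -0.12 without replicate 1 and without replicate 2, which leave no test. Of 33 named genes, those called kept their sign in every setting run, while up to 7 uncalled ones in a setting did not. Replicate numbers and dye go together, so whether the numbers pair the samples could not be checked apart from the dye.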
